A study of Mus musculus with 20 samples.

Results

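Spi1 and 5 genes of the Cebp family (Cebpa, Cebpb, Cebpd, Cebpe and Cebpg) were described from ChIP-seq peak lists of mouse bone marrow. The members were the peaks that overlapped the body of 1 of these 6 genes, of 55450 in the GENCODE annotation, or the 50 kb on either side of it. They came to 682 of the 591292 peaks in 12 lists. The lists covered 3 histone marks, H3K27ac, H3K4me1 and H3K4me3, in 4 genotypes, with 1 library per genotype and mark. Another 8 of the 20 samples of the series, H3 and H3K27me3, were not analysed here as peak lists.

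All 4 genotypes were C57BL/6 mice that carried floxed Ep300 alleles (Ep300fl/fl) and received 3 doses of poly(I:C), begun at 6 to 8 weeks of age. WT mice had Ep300fl/fl without Cre. Ep300Δ/Δ mice were Mx1-Cre;Ep300fl/fl, Tet2-/- mice were Ep300fl/fl;Tet2-/-, and Ep300Δ/ΔTet2-/- mice were Mx1-Cre;Ep300fl/fl;Tet2-/-. Mx1-Cre is switched on by interferon and is not limited to blood cells, so that deletion is not confined to the cells profiled. Lineage-negative (Lin-) bone marrow cells were used, a mixture of stem and progenitor cells in which fewer cells of a type and less mark per cell cannot be told apart. Promoters of 7, 7, 6 and 6 of 8 stem and progenitor markers held an H3K27ac peak in WT, Ep300Δ/Δ, Tet2-/- and Ep300Δ/ΔTet2-/- cells, against 0 of 5 T cell markers in every genotype, 1, 0, 0 and 0 of 4 B cell markers, 2, 1, 0 and 0 of 4 mature neutrophil markers, 1, 0, 0 and 1 of 2 natural killer cell markers and 3 of the 4 erythroid markers found in the annotation in every genotype. The promoters of Ep300 and of Tet2 held an H3K27ac peak in all 4 genotypes, so these lists did not check the deletions.

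Spi1 encodes PU.1, an ETS-family transcription factor required for myeloid and B lymphoid development, and the Cebp genes encode basic leucine zipper factors that bind DNA as dimers. C/EBPα drives the entry of progenitors into the granulocyte and monocyte lineage, and both Spi1 and Cebpa are controlled by distal enhancers that other blood factors, RUNX1 among them, bind. p300, the product of Ep300, is an acetyltransferase that writes H3K27ac on active enhancers and promoters, H3K4me1 marks enhancers whether active or not, H3K4me3 marks promoters, and TET2 oxidises methylated cytosine.

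Each peak carried the fold enrichment over the H3 library that the authors' peak caller gave it. Folds belong to 1 list each, so a peak's strength is also given as its percentile by fold within its own list, with 100 the highest. Regions are named by the distance of their centre from the outermost GENCODE start of the gene, on GRCm38 (mm10), with positive values downstream. Peaks more than 3 kb from every annotated start were called distal. With 1 library per group there was no replicate check and no test between genotypes, and the lists give no read depth.

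The sequences below are those on which the description of the enhancers turns. They are shown on the forward strand of GRCm38, 5′ to 3′, from the RefSeq genome, and capitals mark matches, on either strand, to TTNNGNAA (C/EBP), GAGGAA (PU.1), TGTGGT (RUNX) or TAACNG (MYB). No matches overlapped one another. The summit windows are 201 bases around the highest WT H3K27ac peak of a region. The gap windows are 201 bases around the middle of the interval between neighbouring WT H3K27ac peaks, and were chosen after the peaks had been seen. Such a gap is a break between listed peaks, and the lists do not show nucleosomes.

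The first pair comes from Spi1, at the upstream element (chr2:91082975-91083175, in an intron of the transcripts that start upstream) and just inside the first intron of the transcript that starts internally (chr2:91097016-91097216). Both regions were acetylated in every genotype.
Spi1 upstream element, gap: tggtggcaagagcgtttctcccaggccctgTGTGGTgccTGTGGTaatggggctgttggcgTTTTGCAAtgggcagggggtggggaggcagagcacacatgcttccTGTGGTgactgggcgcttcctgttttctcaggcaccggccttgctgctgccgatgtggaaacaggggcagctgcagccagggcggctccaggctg
Spi1 internal start, summit: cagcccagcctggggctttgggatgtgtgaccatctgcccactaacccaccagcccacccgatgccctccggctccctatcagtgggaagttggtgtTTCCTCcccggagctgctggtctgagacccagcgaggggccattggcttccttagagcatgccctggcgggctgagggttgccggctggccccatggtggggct

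The next set comes from Cebpa, whose intergenic downstream cluster (chr7:35156149-35156349 for the gap and chr7:35156920-35157120 for the summit) held its highest H3K27ac peak, and whose promoter (the 250 bases before the start, chr7:35119043-35119292) overlapped an H3K27ac peak in WT only.
Cebpa downstream cluster, gap: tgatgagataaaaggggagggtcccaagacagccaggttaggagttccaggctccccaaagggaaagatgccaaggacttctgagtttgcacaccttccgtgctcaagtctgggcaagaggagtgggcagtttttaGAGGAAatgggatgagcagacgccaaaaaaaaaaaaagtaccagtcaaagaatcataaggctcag
Cebpa downstream cluster, summit: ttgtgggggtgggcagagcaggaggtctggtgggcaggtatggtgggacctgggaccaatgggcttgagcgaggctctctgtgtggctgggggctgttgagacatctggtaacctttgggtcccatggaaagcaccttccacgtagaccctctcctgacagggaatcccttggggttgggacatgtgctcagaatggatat
Cebpa promoter: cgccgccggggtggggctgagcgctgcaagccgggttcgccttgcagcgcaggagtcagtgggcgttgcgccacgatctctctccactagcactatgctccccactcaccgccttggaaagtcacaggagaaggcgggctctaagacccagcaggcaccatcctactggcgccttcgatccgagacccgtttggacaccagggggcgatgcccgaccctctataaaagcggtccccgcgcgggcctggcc

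The last set comes from the intergenic region downstream of Cebpe (chr14:54706736-54706936 for the gap and chr14:54706292-54706492 for the summit) and from the region downstream of Cebpb (chr2:167698152-167698352, in an intron of A530013C23Rik), which differed in which genotypes they were listed.
Cebpe downstream cluster, gap: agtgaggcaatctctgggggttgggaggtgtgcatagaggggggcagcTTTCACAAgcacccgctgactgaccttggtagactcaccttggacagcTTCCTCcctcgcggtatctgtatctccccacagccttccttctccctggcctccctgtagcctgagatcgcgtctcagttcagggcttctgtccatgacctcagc
Cebpe downstream cluster, summit: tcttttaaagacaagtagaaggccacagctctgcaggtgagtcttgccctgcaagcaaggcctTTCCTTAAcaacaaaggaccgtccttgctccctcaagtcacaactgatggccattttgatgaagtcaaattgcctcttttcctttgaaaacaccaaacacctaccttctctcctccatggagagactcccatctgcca
Cebpb downstream region, summit: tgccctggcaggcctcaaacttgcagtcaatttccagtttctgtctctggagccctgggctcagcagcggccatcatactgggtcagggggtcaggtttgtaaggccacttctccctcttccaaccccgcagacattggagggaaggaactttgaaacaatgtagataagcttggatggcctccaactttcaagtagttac

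The Spi1 gap window held 1 C/EBP match and 3 RUNX matches. The C/EBP match and 1 RUNX match lay in the gap itself, and the other RUNX matches lay in the acetylated peak beside it. The Cebpa gap window held 1 PU.1 match and the Cebpe gap window 1 C/EBP and 1 PU.1 match, all inside the gaps. The summit windows of Spi1 and Cebpe held 1 PU.1 and 1 C/EBP match, and the other windows none. Such matches are common. Of 10125 gaps of at most 1000 bp in the WT H3K27ac list, 32.0% held the C/EBP letters, 21.7% the PU.1 letters, 14.1% the RUNX letters and 17.8% the MYB letters in a window of the same length. Of 10830 summit windows of distal WT H3K27ac peaks the shares were 28.7%, 20.5%, 16.6% and 18.5%. Of 32851 RefSeq promoter windows of 250 bases they were 36.8%, 23.3%, 14.0% and 19.8%.

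To ask how the loss of p300, of TET2 or of both went with the marks at these genes, 2 lists at a time were merged, and a region of the first list was called lost where no base overlapped a peak of the second, and gained in the opposite case. Lost means not listed, which is not the same as an amount. Across the 6 genes, H3K27ac peaks numbered 46 in WT, 28 in Ep300Δ/Δ, 33 in Tet2-/- and 21 in Ep300Δ/ΔTet2-/- cells, and the whole lists held 29659, 22727, 24539 and 18327. From WT to Ep300Δ/Δ, 21 of 45 H3K27ac regions were lost, 46.7% (95% exact binomial interval 31.7 to 62.1), beside 39.7% of all regions. From Tet2-/- to Ep300Δ/ΔTet2-/-, 12 of 31 were lost, 38.7% (21.8 to 57.8), beside 37.8%. From WT to Tet2-/- the count was 17 of 44, 38.6% (24.4 to 54.5), beside 35.6%, and from Ep300Δ/Δ to Ep300Δ/ΔTet2-/- it was 9 of 26, 34.6% (17.2 to 55.7), beside 31.2%. In each comparison the interval held the share of the whole lists, so no difference between the 6 genes and the other regions was detectable at this number of regions.

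Gains were few. In the same order, 1 of 25, 2 of 21, 3 of 30 and 4 of 21 H3K27ac regions of the second list were gained, beside 12.8%, 15.0%, 20.3% and 18.5% of all regions. Among distal regions, 16 of 21 were lost from WT to Ep300Δ/Δ, 76.2% (52.8 to 91.8), beside 62.5% of all distal regions, and 6 of 10 from Tet2-/- to Ep300Δ/ΔTet2-/-, 60.0% (26.2 to 87.8), beside 61.9%. The intervals cover counting error only.

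The methylation marks were lost at lower shares than H3K27ac in each comparison, and the intervals overlapped those of H3K27ac except for H3K4me3 from Ep300Δ/Δ to Ep300Δ/ΔTet2-/-. For H3K4me1, 40 of 119 regions were lost from WT to Ep300Δ/Δ, 33.6% (25.2 to 42.8), beside 36.7% of all regions, and 24 of 97 from Tet2-/- to Ep300Δ/ΔTet2-/-, 24.7% (16.5 to 34.5), beside 31.1%. The H3K4me1 regions gained were 16 of 95, beside 24.1%, and 15 of 88, beside 23.4%. For H3K4me3, 6 of 28 regions were lost in the first comparison, 21.4% (8.3 to 41.0), beside 15.4%, and 5 of 32 in the second, 15.6% (5.28 to 32.8), beside 13.3%. The H3K4me3 regions gained were 2 of 24, beside 11.1%, and 1 of 28, beside 9.45%. In these comparisons by Ep300 the intervals held the shares of the whole lists. With −log10 q of at least 5, however, H3K4me1 losses from Tet2-/- to Ep300Δ/ΔTet2-/- were 30.9% (21.1 to 42.1), beside 44.1%. With peaks within 500 bp counted as shared, H3K4me3 losses from WT to Ep300Δ/Δ were 0.0% (0.0 to 19.5), beside 11.7%, which the interval holds.

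From WT to Tet2-/-, 24 of 107 H3K4me1 regions were lost, 22.4% (14.9 to 31.5), beside 28.6% of all regions. From Ep300Δ/Δ to Ep300Δ/ΔTet2-/-, 13 of 89 were lost, 14.6% (8.01 to 23.7), beside 26.2%, so the share at the 6 genes was lower and its interval did not reach that of the whole lists. The interval of this share did reach it with flanks of 25 or 100 kb, with peaks within 500 bp counted as shared and with a stricter q. H3K4me3 losses were 2 of 26 regions from WT to Tet2-/-, 7.69% (0.946 to 25.1), beside 11.1%, and 0 of 24 from Ep300Δ/Δ to Ep300Δ/ΔTet2-/-, 0.0% (0.0 to 14.2), beside 10.3%. In the same order, gains were 18 of 101 H3K4me1 regions, beside 26.8%, and 20 of 96, beside 29.5%, and 6 of 30 H3K4me3 regions, beside 13.6%, and 5 of 29, beside 13.2%. More regions were thus gained than lost at the 6 genes for H3K4me3 in both comparisons and for H3K4me1 from Ep300Δ/Δ to Ep300Δ/ΔTet2-/-. The whole lists went the same way. They had 3569 H3K4me3 regions gained and 2837 lost, then 3238 and 2448, and 26074 and 22135 for H3K4me1. With a 25 kb flank, H3K4me3 from WT to Tet2-/- had 2 regions gained and 2 lost at the 6 genes.

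**Figure D1:**
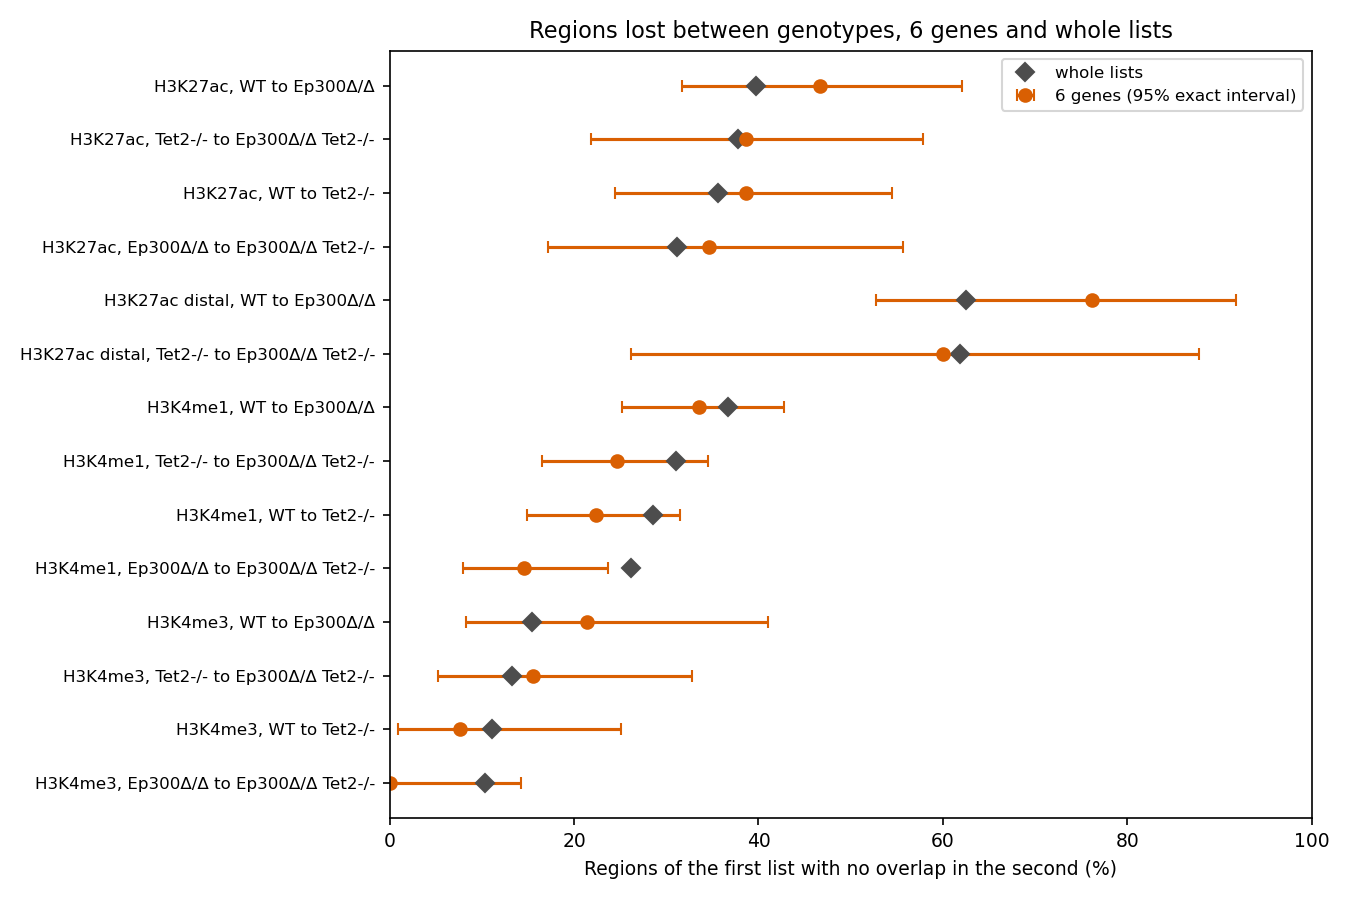
Percent of regions of the first list that overlapped no peak of the second, in 14 comparisons (1 library per list). Circles are the 6 genes with 95% exact binomial intervals and diamonds are the whole lists. The interval of H3K4me1 from Ep300Δ/Δ to Ep300Δ/ΔTet2-/- lies below its diamond, the other intervals contain theirs, and distal H3K27ac from WT to Ep300Δ/Δ, at 76.2%, has the highest share.

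Active enhancers, counted as distal H3K27ac peaks that overlapped H3K4me1, numbered 21 in WT, 6 in Ep300Δ/Δ, 10 in Tet2-/- and 4 in Ep300Δ/ΔTet2-/- cells at the 6 genes. The whole lists held 9505, 5093, 6548 and 3720, so active enhancers fell in number throughout. The mutant counts were 28.6%, 47.6% and 19% of the WT count at the 6 genes and 53.6%, 68.9% and 39.1% of it over the whole lists. Counts at the 6 genes are small, and the difference was not tested. Distal H3K4me1 peaks without H3K27ac numbered 54, 51, 45 and 47 at the 6 genes, beside 53210, 45187, 51578 and 48346 in the whole lists. The acetylated enhancers were thus 7 at Cebpa, 6 at Cebpb, 5 at Cebpe and 3 at Spi1 in WT, with 0 at Cebpd and Cebpg, and in Ep300Δ/ΔTet2-/- cells they were 0 at Cebpa, 2 at Cebpb, 1 at Cebpe and 1 at Spi1.

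**Figure D2:**
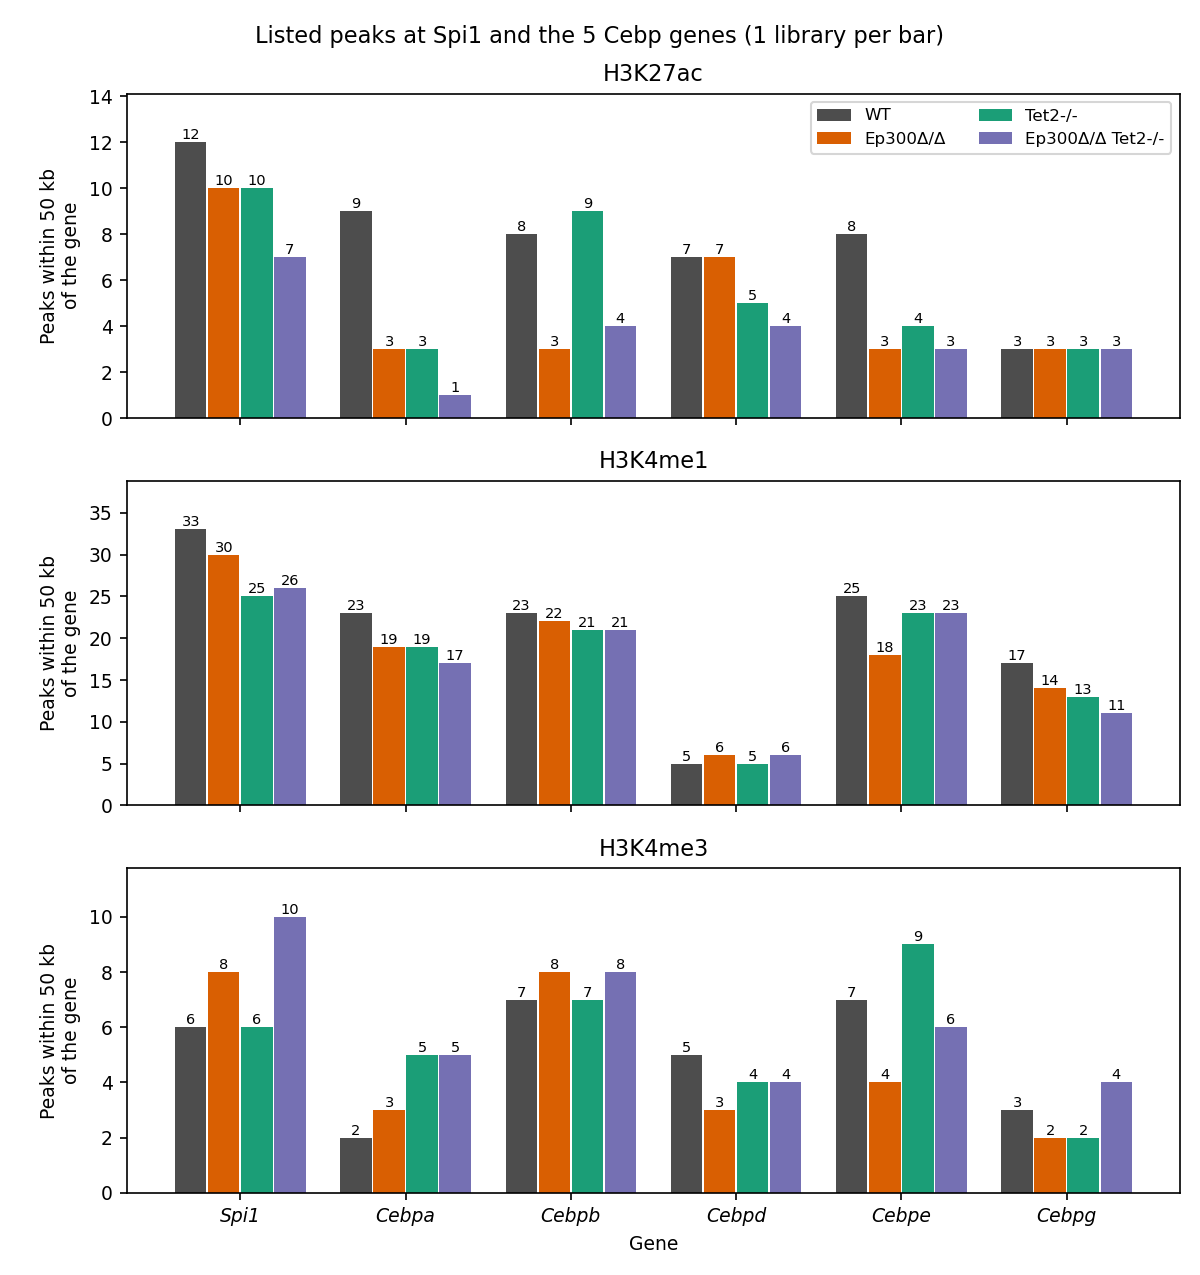
Number of listed peaks in the window of each gene (gene body and 50 kb on either side) for the 3 marks, 1 bar per library. H3K27ac at Cebpa goes from 9 peaks in WT to 1 in Ep300Δ/ΔTet2-/-, and at Cebpg it is 3 in every genotype.

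Spi1 lies on chromosome 2 (ENSMUSG00000002111.8, 91082390 to 91115756, forward strand). Of its 4 GENCODE transcripts, a pair starts at or near the outermost site and the others start inside the gene. The RefSeq Select transcript starts at 91096678, and the outermost start lies 14.3 kb upstream of it, in the stretch known as the upstream regulatory element of Spi1. That element (16 to 13 kb upstream of the RefSeq Select start, chr2:91080678-91083678) therefore counts as a promoter by the annotation. It held 3 H3K27ac peaks in WT, 2 in Ep300Δ/Δ, 1 in Tet2-/- and 2 in Ep300Δ/ΔTet2-/- cells.

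The highest H3K27ac fold in the Spi1 upstream element was 28.4 in WT, 22.0 in Ep300Δ/Δ, 15.4 in Tet2-/- and 10.7 in Ep300Δ/ΔTet2-/- cells, at percentiles 95.3, 95.2, 85.0 and 71.9 of their lists. The element was thus listed in all 4, near the top of the WT and Ep300Δ/Δ lists and lower in Ep300Δ/ΔTet2-/-. In WT, a gap of 100 bp, at the middle of the gap window printed above, parted listed H3K27ac peaks. In Tet2-/- and in Ep300Δ/ΔTet2-/- cells an H3K27ac peak ran across this gap. Across the element, the highest H3K4me1 folds were 10.3, 10.7, 10.2 and 12, at percentiles 98.1, 99.0, 95.3 and 99.1. H3K4me3 was low for its lists, with folds of 7.92, 10.5, 9.73 and 9.47 at percentiles 32.1, 41.8, 40.4 and 41.9. High H3K4me1 beside low H3K4me3 is the usual picture of an enhancer, and it was there in every genotype. H3K27ac peaks covered 94.0%, 64.2%, 64.2% and 65.6% of the element in WT, Ep300Δ/Δ, Tet2-/- and Ep300Δ/ΔTet2-/- cells. They covered 94.9%, 75.5%, 56.6% and 48.8% of the adjoining stretch (13 to 11 kb upstream) in the same order.

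The internal start of Spi1 looked different. Its region at +15.0 kb (chr2:91095901-91098935) had H3K27ac folds of 20.7, 15.3, 16.9 and 13.2 in WT, Ep300Δ/Δ, Tet2-/- and Ep300Δ/ΔTet2-/- cells, at percentiles 90.8, 88.6, 87.4 and 79.9, and H3K4me3 folds of 46.9, 29.6, 36.7 and 23.3, at percentiles 78.5, 66.9, 84.3 and 69.1. All 4 genotypes kept both marks at this promoter.

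Distal H3K27ac regions of Spi1 were 3. The intronic region at +6.0 kb (chr2:91086635-91090114) was listed in all 4 genotypes, at folds of 11.6, 5.20, 2.78 and 3.32. Its percentiles were 75.4, 41.3, 1.98 and 4.94, so in the Tet2-/- and Ep300Δ/ΔTet2-/- lists it was among the weakest peaks. The intronic region at +3.7 kb (chr2:91085634-91086500) was listed in WT (5.18) and Ep300Δ/Δ (4.92) and in neither genotype without Tet2. The intergenic region at -3.7 kb (chr2:91078578-91078756) was listed in WT (4.71) and Tet2-/- (4.72) and in neither genotype without Ep300. Its neighbour at -3.3 kb, whose edge lies within 3 kb of the start, was at 9.21 in WT and 4.34 in Tet2-/- and was likewise not listed without Ep300. An H3K4me1 peak overlapped this neighbour in all 4 genotypes, in WT and Tet2-/- with its summit nearer the start. An H3K4me3 region (chr2:91077837-91079435) covered both sites in all 4, with folds of 21.1, 13.9, 21.5 and 14.6 in WT, Ep300Δ/Δ, Tet2-/- and Ep300Δ/ΔTet2-/-.

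H3K27ac peaks in the Spi1 window numbered 12, 10, 10 and 7, and with a flank of 100 kb 15, 15, 15 and 11. In the 4 comparisons, in the order used for H3K27ac above, the second count was 83.3%, 70%, 83.3% and 70% of the first. The medians over coding genes with at least 3 peaks were 81.2%, 75%, 83.3% and 75%. Of the 10 H3K27ac regions 6 were listed in all 4 genotypes, and none in WT alone. Among the 6 were the starts of neighbouring genes, Psmc3 at -28.1 kb (folds of 41.6, 24.8, 20.4 and 13) and Slc39a13 at -11.6 kb (18.3, 12, 18.5 and 7.13). H3K4me1 peaks numbered 33, 30, 25 and 26, and 12 of 31 regions were shared by all 4. H3K4me3 peaks numbered 6, 8, 6 and 10, and 5 of 6 regions were shared by all 4.

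**Figure D3:**
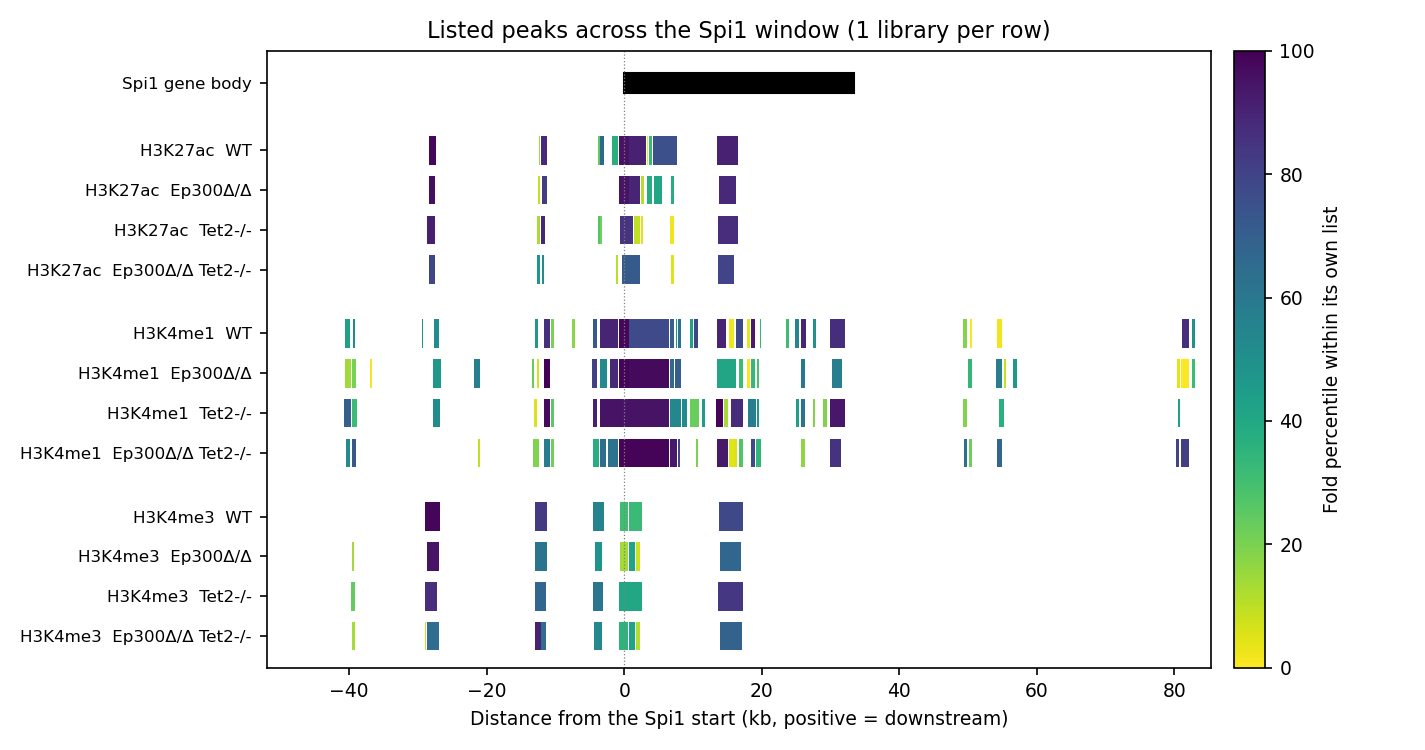
Listed peaks across the Spi1 window, by distance from the outermost start (kb), with 1 row per library and the gene body in black. Colour is the fold percentile within that library's own list. The acetylated stretches at the outermost start and at +15.0 kb are present in all 4 H3K27ac rows, and the +6.0 kb stretch between them goes from percentile 75.4 in WT to 4.94 in Ep300Δ/ΔTet2-/-.

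Cebpa lies on chromosome 7 (ENSMUSG00000034957.10, 35119293 to 35121928, forward strand). Its window held 9 H3K27ac peaks in WT, 3 in Ep300Δ/Δ, 3 in Tet2-/- and 1 in Ep300Δ/ΔTet2-/- cells, and 5.07, 1.46, 1.46 and 0.822 kb were covered. The second count was 33.3% of the first in each of the 4 comparisons, and the medians over coding genes with at least 3 peaks were 81.2%, 75%, 83.3% and 75%. Of 10 regions 6 were listed in WT only and 1 in all 4.

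The downstream cluster, 35 to 40 kb from the Cebpa start, is where a well known Cebpa enhancer lies. It held 4 H3K27ac peaks in WT, 1 in Ep300Δ/Δ, 1 in Tet2-/- and none in Ep300Δ/ΔTet2-/- cells. Its highest peak, at +37.7 kb (chr7:35156681-35157378, intergenic, 29007 bp from the nearest coding start, that of Slc7a10), had a fold of 10.4 in WT, 4.62 in Ep300Δ/Δ and 3.78 in Tet2-/- cells, at percentiles 71.3, 32.8 and 12.3. A peak in the upper part of the WT list was thus in the lower part of both single-mutant lists and was not listed with both genes deleted.

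H3K4me1 stayed listed across the cluster. It held 3 H3K4me1 peaks in each genotype, with highest folds of 10.5, 7.49, 11 and 9.91 in WT, Ep300Δ/Δ, Tet2-/- and Ep300Δ/ΔTet2-/- cells. The enhancer mark was therefore listed where acetylation was not. H3K4me3 was listed in Tet2-/- only, as 2 weak peaks with folds of 3.42 and 2.89, at percentiles 4.32 and 1.69.

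The other distal H3K27ac regions of Cebpa were mostly weak in WT. The regions at +33.4 kb (chr7:35152116-35153205, fold 5.92), +36.3 kb (chr7:35155393-35155816, 4.58), +35.7 kb (chr7:35154827-35155084, 3.54), +7.5 kb (chr7:35126695-35126984, 3.54) and +35 kb (chr7:35154088-35154508, 2.49) were listed in WT only, at percentiles from 0.533 to 41.5. The region at +32.3 kb (chr7:35151122-35152010) was listed in WT (4.79) and Tet2-/- (4.34) and in neither genotype without Ep300. H3K4me1 peaks overlapped each of these 6 in all 4 genotypes.

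At the Cebpa promoter, H3K27ac was listed at -0.5 kb in WT only (fold 4.21, percentile 17.7) and at +1.3 kb, over the exon, in Ep300Δ/Δ only (3.24, percentile 8.62). H3K4me3 over the gene merged into 1 stretch of 5574 bp, which was 1 peak in WT, 2 peaks in Ep300Δ/Δ, 2 in Tet2-/- and 3 in Ep300Δ/ΔTet2-/- cells, with highest folds of 36, 44.8, 25.8 and 27.4 in WT, Ep300Δ/Δ, Tet2-/- and Ep300Δ/ΔTet2-/- cells. The promoter thus carried H3K4me3 in every genotype and little or no listed acetylation. The single H3K27ac region common to all 4, at -38.1 kb (chr7:35080729-35081598), lies by a start of the noncoding gene Gm25033 and also counts in the Cebpg window.

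These Cebpa counts rest on weak peaks. With only peaks of −log10 q of at least 5 they were 4, 0, 1 and 0 in WT, Ep300Δ/Δ, Tet2-/- and Ep300Δ/ΔTet2-/- cells, and with lists cut to equal size they were 2, 1, 1 and 1. With a flank of 25 kb, which leaves out the downstream cluster, they were 2, 1, 0 and 0. WT had the highest count each time, by 1 peak with equal size and with the 25 kb flank.

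**Figure D4:**
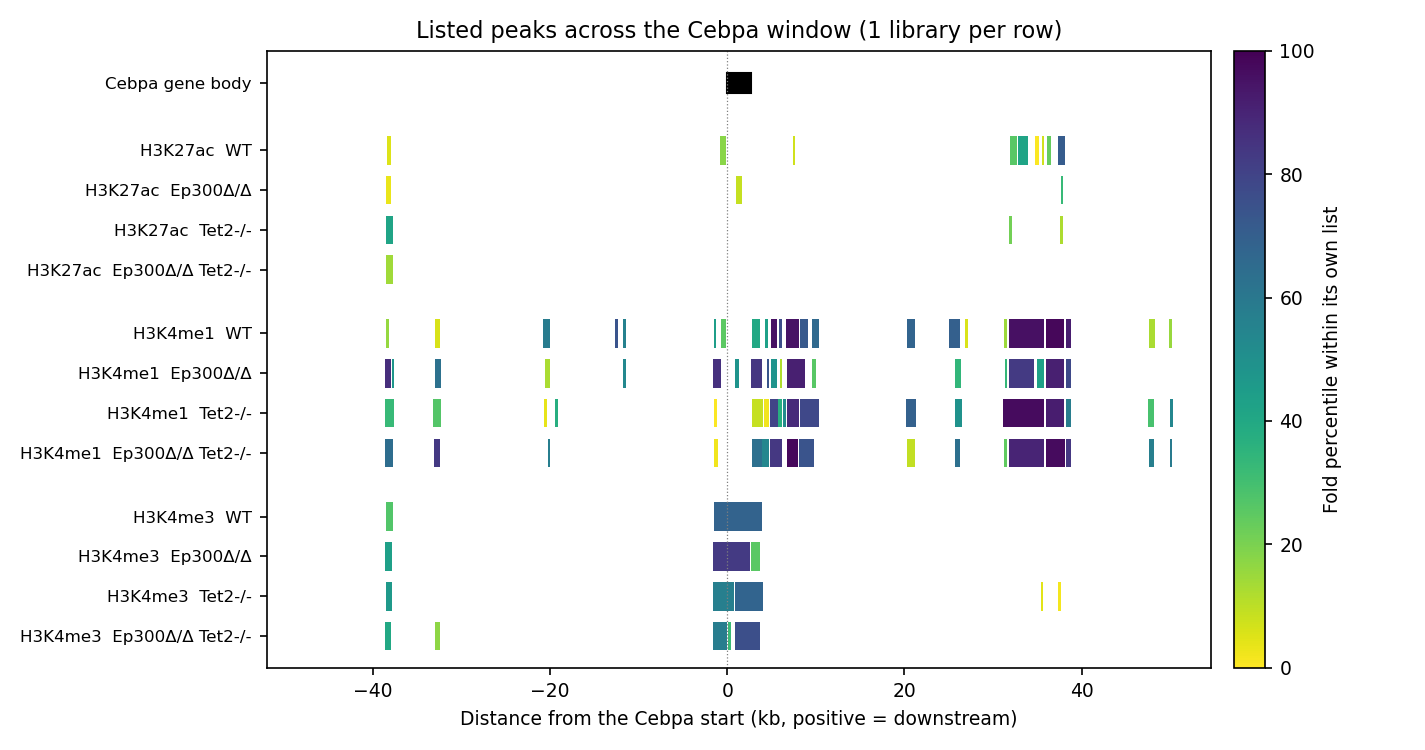
Listed peaks across the Cebpa window, by distance from the start (kb), with 1 row per library and the gene body in black. Colour is the fold percentile within that library's own list. H3K27ac at +32.3 to +37.7 kb thins from WT to none in Ep300Δ/ΔTet2-/-, above H3K4me1 that is listed in all 4 rows.

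Cebpb, which encodes the C/EBP of inflammation and emergency granulopoiesis, lies on chromosome 2 (ENSMUSG00000056501.3, 167688915 to 167690418, forward strand). H3K27ac peaks numbered 8 in WT, 3 in Ep300Δ/Δ, 9 in Tet2-/- and 4 in Ep300Δ/ΔTet2-/- cells, so both genotypes without Ep300 had fewer than both with it. The counts without Ep300 were 37.5% of WT and 44.4% of Tet2-/-, beside medians of 81.2% and 75% over coding genes with at least 3 peaks. With lists cut to equal size the 4 counts were 4, 2, 7 and 4, which put WT and Ep300Δ/ΔTet2-/- level. The region at +9.3 kb (chr2:167697706-167698671) had folds of 12.4 in WT, 16.5 in Tet2-/- and 9.03 in Ep300Δ/ΔTet2-/- cells, at percentiles 77.7, 87.0 and 64.6, and was not listed in Ep300Δ/Δ. H3K4me1 was listed there in all 4, at 5.81 in WT, 3.57 in Ep300Δ/Δ, 7.60 in Tet2-/- and 5.70 in Ep300Δ/ΔTet2-/-.

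The Cebpb region at +21.7 kb was listed in WT (8.72) and Tet2-/- (5.62) only. The region at -31.9 kb, in an intron shared by Gm20431 and Tmem189, had the highest fold of the window except in Tet2-/-, where +9.3 kb was higher, and was listed in all 4, with folds of 25.7, 20.6, 13.3 and 24.5 in WT, Ep300Δ/Δ, Tet2-/- and Ep300Δ/ΔTet2-/-. Peaks close to the Cebpb start itself, at -0.4 kb (6.01) and +0.8 kb (8.78), were listed in Tet2-/- only, and a region at +1.9 kb was listed in all 4 (5.13, 3.65, 5.88 and 2.69). Of 11 H3K27ac regions 3 were in all 4 genotypes and 3 in WT only. H3K4me1 peaks numbered 23, 22, 21 and 21 and covered 31.3, 21.2, 31.3 and 26.2 kb, and 15 of 27 regions were in all 4. H3K4me3 peaks numbered 7, 8, 7 and 8, and 6 of 7 regions were in all 4.

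Cebpd, which encodes a C/EBP induced by cytokines, lies on chromosome 16 (ENSMUSG00000071637.5, 15887286 to 15891031, forward strand) and had no distal H3K27ac peak in any genotype. Its H3K27ac peaks numbered 7, 7, 5 and 4 in WT, Ep300Δ/Δ, Tet2-/- and Ep300Δ/ΔTet2-/- cells. Except for the start of Mzt2 at -24.2 kb, they lay on the gene and its promoter. The promoter region at -0.3 kb had folds of 14.4, 10.8, 16 and 14.2, at percentiles 82.5, 78.4, 86.2 and 82.1, and the first exon at +0.2 kb had 13.1, 12, 15.5 and 9.59, at percentiles 79.7, 82.0, 85.3 and 67.2. The promoter region thus stayed in the upper part of every list, and the first exon was lowest in Ep300Δ/ΔTet2-/-. Toward the end of the gene, at +3.2 kb, the folds were 11.6, 4.79, 3.93 and 3.55, at percentiles 75.4, 35.6, 14.6 and 7.22. H3K4me1 peaks were few, 5, 6, 5 and 6, and H3K4me3 peaks numbered 5, 3, 4 and 4.

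Cebpe, which encodes the C/EBP of late granulocyte maturation, lies on chromosome 14 (ENSMUSG00000052435.7, 54710360 to 54712174, reverse strand). H3K27ac peaks numbered 8 in WT, 3 in Ep300Δ/Δ, 4 in Tet2-/- and 3 in Ep300Δ/ΔTet2-/- cells. The downstream region at +5.5 kb (chr14:54705876-54707432) had folds of 8.65, 6.56 and 4.77 in the first 3 and was not listed in Ep300Δ/ΔTet2-/-, at percentiles 63.7, 56.4 and 28.1. H3K4me1 was listed there in all 4 genotypes, with folds of 6.89 in WT, 6.53 in Ep300Δ/Δ, 6.77 in Tet2-/- and 6.35 in Ep300Δ/ΔTet2-/-, at percentiles 86.0, 84.2, 76.4 and 78.1. In Ep300Δ/ΔTet2-/- cells the site, like the Cebpa cluster, was thus listed for H3K4me1 and not for H3K27ac.

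At the Cebpe promoter, H3K27ac was listed at +0.3 kb in WT (5.71), Ep300Δ/Δ (3.82) and Ep300Δ/ΔTet2-/- (3.32), and at -0.8 kb in WT (5.78) and Tet2-/- (3.67). The distal region at -42.8 kb, in an intron of Slc7a8, went the other way from most, with folds of 5.46 in WT, 5.43 in Tet2-/- and 8.96 in Ep300Δ/ΔTet2-/- and no peak in Ep300Δ/Δ, at percentiles 35.7, 37.5 and 63.9. The single region in all 4 was the start of Acin1 at +25.7 kb (36.4, 48.0, 33.3 and 20.4). H3K4me1 peaks numbered 25, 18, 23 and 23, and 12 of 28 regions were in all 4. H3K4me3 peaks numbered 7, 4, 9 and 6.

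Cebpg, which encodes a C/EBP without a transactivation domain that pairs with the others, lies on chromosome 7 (ENSMUSG00000056216.9, 35046422 to 35056573, reverse strand), next to Cebpa. It had 3 H3K27ac peaks in every genotype and no distal one. The count was also 3 in every genotype with a flank of 25 kb, but with one of 100 kb the counts were 12, 7, 6 and 3. The promoter region at -0.4 kb had folds of 21.6, 14.2, 13.2 and 19.3 in WT, Ep300Δ/Δ, Tet2-/- and Ep300Δ/ΔTet2-/- cells, at percentiles 91.5, 87.0, 80.5 and 90.1. The region at +0.8 kb had 10.0, 11, 9.29 and 5.94, at percentiles 70.4, 79.0, 67.6 and 39.3. H3K4me1 peaks numbered 17, 14, 13 and 11, and H3K4me3 peaks 3, 2, 2 and 4.

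**Figure D5:**
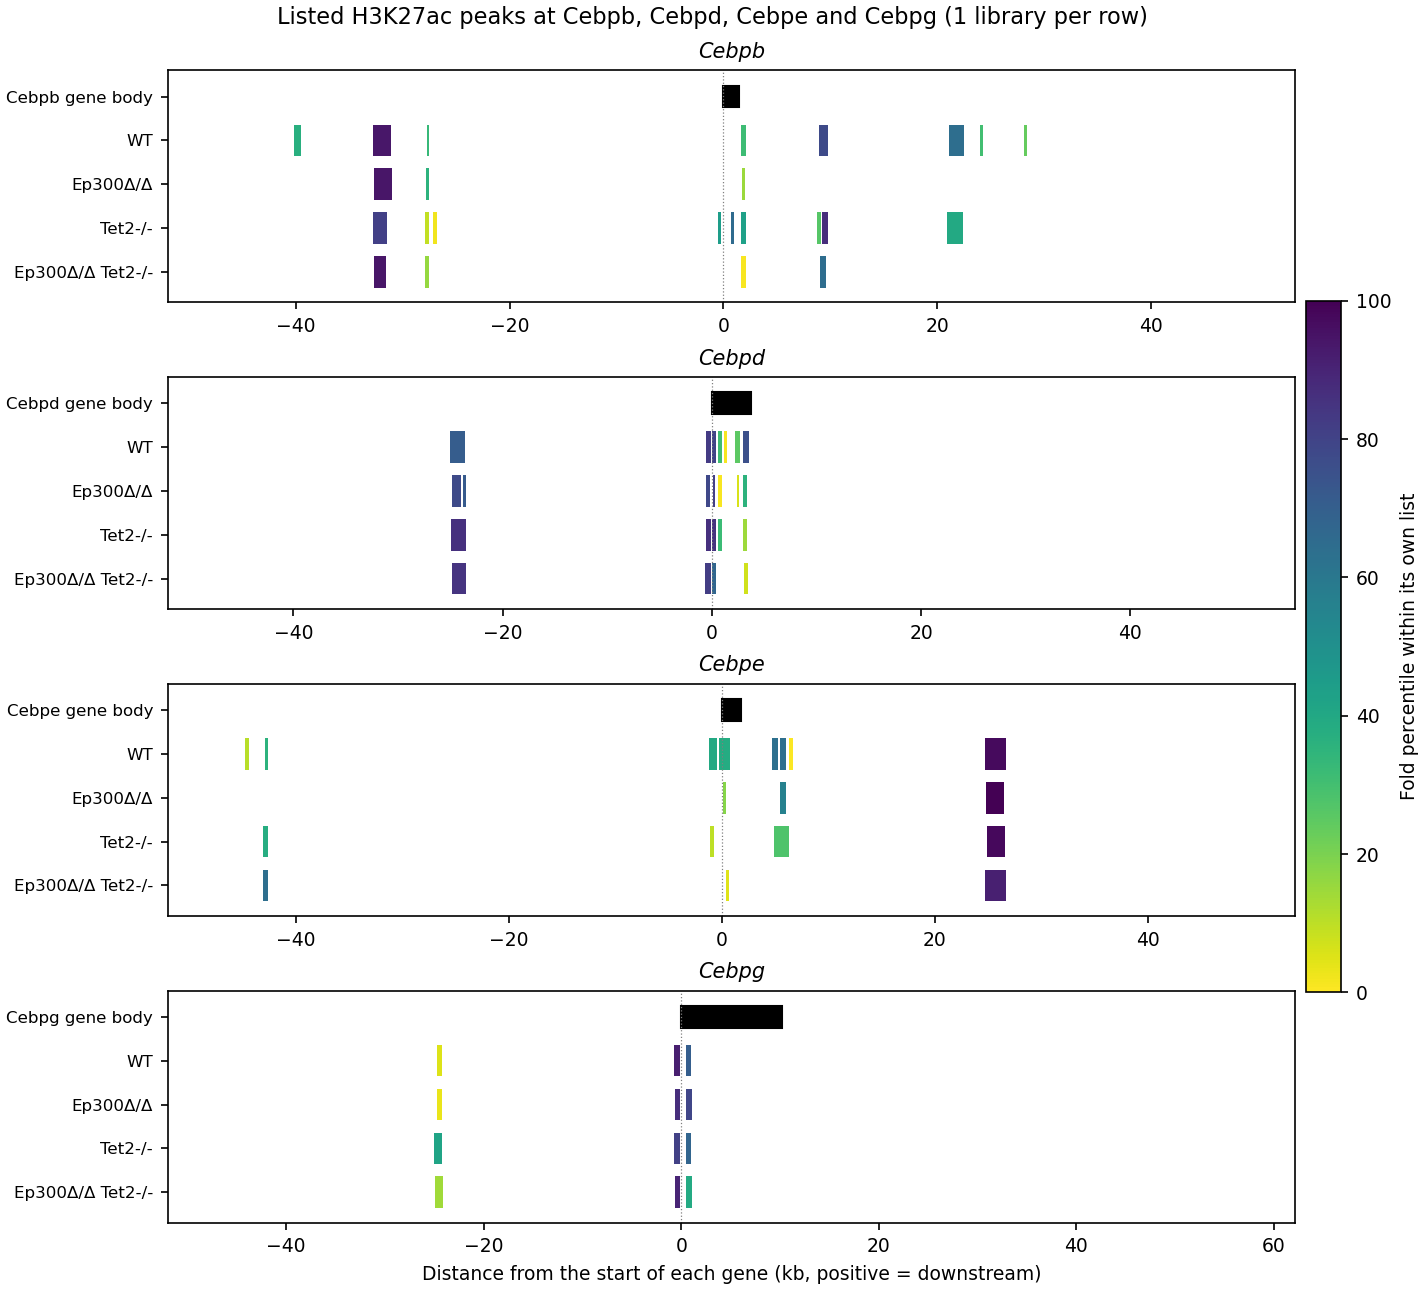
Listed H3K27ac peaks across the windows of Cebpb, Cebpd, Cebpe and Cebpg, by distance from each gene's start (kb), with 1 row per library and the gene body in black. Colour is the fold percentile within that library's own list. The Cebpg rows hold the same 3 regions, the Cebpd rows peaks on the gene and at -24.2 kb, and the rows of Cebpb and Cebpe thin at distal sites.

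Genes that work with or against these factors were read from a list of 20 partners and antagonists, and genes they control from a list of 20 myeloid target genes, in windows made the same way. Among the partners, 76 of 198 H3K27ac regions were lost from WT to Ep300Δ/Δ, 38.4% (31.6 to 45.5), beside 39.7% of all regions, and 49 of 139 from Tet2-/- to Ep300Δ/ΔTet2-/-, 35.3% (27.3 to 43.8), beside 37.8%. More regions were lost than gained at 15 and 12 of the 20 genes, beside 59.9% and 56.2% of all coding genes with an H3K27ac region in their window. The comparisons of WT with Tet2-/- and of Ep300Δ/Δ with Ep300Δ/ΔTet2-/- gave 78 of 194, 40.2% (33.2 to 47.5), beside 35.6%, and 66 of 156, 42.3% (34.4 to 50.5), beside 31.2%. There, losses outnumbered gains at 15 of 20 and 13 of the 19 genes with a region, beside 48.7% and 44.9% of coding genes. Irf8, which encodes a partner of PU.1 in monocyte and dendritic cell development, lost 15 of 18 regions from WT to Tet2-/- and gained 1, and from WT to Ep300Δ/Δ it lost 8 of 18 and gained 9. From Ep300Δ/Δ to Ep300Δ/ΔTet2-/- it lost 15 of 19 and gained 1, and from Tet2-/- to Ep300Δ/ΔTet2-/- it lost 2 of 4 and gained 3. Runx1, which encodes an upstream regulator of Spi1 and had the most regions of the list in WT, lost 10 of 26 from WT to Ep300Δ/Δ and gained 1. All regions were lost at 39.7% there. Runx1 also lost 10 of 26 from WT to Tet2-/-, beside 35.6%, and 10 of 20 from Ep300Δ/Δ to Ep300Δ/ΔTet2-/-, beside 31.2%. From Tet2-/- to Ep300Δ/ΔTet2-/- it lost 7 of 18, beside 37.8%. Gata2, which encodes a stem and progenitor cell factor, lost 12 of 12 regions from Tet2-/- to Ep300Δ/ΔTet2-/- and gained 0. From WT to Ep300Δ/Δ it lost 8 of 8 and gained 2, and from Ep300Δ/Δ to Ep300Δ/ΔTet2-/- it lost 2 of 2 and gained 0. From WT to Tet2-/- it lost 2 of 7 and gained 6.

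Among the myeloid targets, 62 of 121 regions were lost from WT to Ep300Δ/Δ, 51.2% (42.0 to 60.4), beside 39.7% of all regions, and 58 of 118 from WT to Tet2-/-, 49.2% (39.8 to 58.5), beside 35.6%. Losses outnumbered gains at 17 and 18 of the 20 genes, beside 59.9% and 48.7% of coding genes. From Tet2-/- to Ep300Δ/ΔTet2-/- the count was 28 of 75, 37.3% (26.4 to 49.3), beside 37.8%, and from Ep300Δ/Δ to Ep300Δ/ΔTet2-/- it was 29 of 74, 39.2% (28.0 to 51.2), beside 31.2%. In these comparisons losses outnumbered gains at 9 and 8 genes and gains outnumbered losses at 2 and 5. Of these 20 genes 18 and 17 had an H3K27ac region in the window, so that losses were ahead at 9 of 18 and 8 of 17, beside 56.2% and 44.9% of coding genes. Elane, which encodes neutrophil elastase, lost 9 of 19 regions from WT to Ep300Δ/Δ and 11 of 19 from WT to Tet2-/-, and its neighbour Prtn3, whose window overlaps, lost 9 of 18 and 10 of 18. Ctsg, which encodes cathepsin G, lost 9 of 12 and 8 of 12 and gained 0 in both. The markers of mature neutrophils with an acetylated promoter were 2 of 4 in WT, 1 in Ep300Δ/Δ and 0 in the other genotypes, and the part of cell composition in these counts was not tested.

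The coding genes whose peak numbers over the 12 libraries were closest to those of Spi1, by the sum of absolute differences, were Slc44a2 (14), Srebf2 (15) and C5ar1 (16, in a tie), and those closest to Cebpa were Clec12a (11), Larp4b (11) and Riox1 (12). The nearest to Cebpb was Cisd3, in a tie (10), to Cebpd Zfp882 (6), to Cebpe Fam78a, in a tie (14), and to Cebpg Tbcel (6).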

How the data were processed

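Lin- bone marrow cells of 4 genotypes (5 μg chromatin per ChIP, with 10 ng Drosophila spike-in chromatin) were profiled, 1 library per genotype and mark. Per the labels and the study's methods, the authors used cutadapt 1.15 for trimming, BWA 0.7.13 for alignment (mm10), Picard for duplicates and MACS2 2.1.1.20160309, with the H3 library as background, for peaks. The deposited lists give each peak's fold enrichment over background, −log10 P, −log10 q and a display score. The score and the P values were not used. The stated q threshold was 0.05, but 0.137% to 7.17% of the peaks in a list had a higher q, and all listed peaks were kept. The lists carry no spike-in scaling factor, so folds were not compared as amounts between them, and a list's length can set what counts as lost. Read depth is not given in the sources used here.

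Gene bodies and starts were taken from GENCODE M21 (GRCm38). Lists were merged pairwise with a 1 bp minimum overlap in Python 3.11.15 (pandas 2.3.3), checked against bedtools 2.31.1 in 10 of 10 simulated list pairs. Intervals are exact Clopper-Pearson with 95% confidence. The main start used for the Spi1 elements is the RefSeq Select start, fixed after the peaks had been seen. The text describes each of the 6 genes and names every distal H3K27ac region of Spi1 and Cebpa, up to 3 genes of a list among those with the most lost or gained regions in a comparison, and the coding genes with the closest peak numbers. Alternatives tried were flanks of 25 and 100 kb, other overlap rules, a stricter q, lists of equal size and narrower promoters. Members and lists were chosen with earlier results of these data known.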

Additional observations from a re-analysis of the deposited data

Results flagged for a closer look

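In 3 regions a peak was listed in WT and in Ep300Δ/ΔTet2-/- cells and in neither single mutant, so that a listed peak was lost with Ep300 deletion where Tet2 was present and gained where it was not. With 1 library per genotype, the difference was not tested, and it rests on whether weak peaks were listed. The H3K27ac region at -1.4 kb from the Spi1 start had a fold of 5.51 in WT and 3.83 in Ep300Δ/ΔTet2-/- cells, at percentiles 37 and 10.4 of their lists. The H3K4me1 region at -23.7 kb from the Cebpe start had folds of 3.18 and 1.95, at percentiles 13.9 and 0.159, and the second peak, with a −log10 q of 0.453, misses the stated q threshold of 0.05. The H3K4me1 region at +0.8 kb from the Cebpg start had folds of 4.01 and 4.02, at percentiles 35.7 and 33.1.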

How the results depend on the processing

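Of 86 shares recomputed for the 14 comparisons, 80 stayed within the exact interval of the reported share. When peaks within 500 bp counted as shared, H3K27ac losses were 24.1% from WT to Tet2-/- (30.1% of all regions) and 15.8% from Ep300Δ/Δ to Ep300Δ/ΔTet2-/- (24.4% of all), H3K4me1 losses from Tet2-/- to Ep300Δ/ΔTet2-/- were 15.0% (25.3% of all), and H3K4me3 losses were 0.0% from WT to Ep300Δ/Δ (11.7% of all) and 0.0% from WT to Tet2-/- (8.79% of all). That rule counts fewer regions as lost by construction, and the 6 genes, above the whole lists in both H3K27ac comparisons and in H3K4me3 from WT to Ep300Δ/Δ without it, were below them with it. With only peaks of −log10 q of at least 5, H3K4me1 losses from WT to Ep300Δ/Δ were 44.9%, beside 51.0% of all regions. From WT to Tet2-/- the H3K4me1 share with a 100 kb flank, 18.5% (12.9 to 25.4), was below the 28.6% of all regions. The cause was not tested. With lists of equal size, H3K27ac losses from WT to Ep300Δ/Δ were 39.3%, beside 24.1% over all regions. Counts per gene under a stricter q, equal size and other flanks, and the H3K4me1 and H3K4me3 comparisons by Tet2, were added after the data had been seen. The WT count of Cebpa went from 9 to 2 with equal size, and with a 100 kb flank those of Cebpb and Cebpg went from 8 to 23 and from 3 to 12. No paired analysis was possible because each genotype and mark had 1 library. Depth is unknown and limits which weak peaks can be listed.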
